A study of Mus musculus with 9 samples.

Results

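Histidine and sarcosine are broken down by short chains of enzymes that feed the folate-bound one-carbon pool. The genes described here are 4 enzymes of histidine breakdown (Hal, Uroc1, Amdhd1 and Ftcd) and 3 enzymes that make or oxidise sarcosine (Gnmt, Dmgdh and Sardh), read in mouse thyroid. They are 7 of the 33924 genes in the count table, matched by gene symbol, and the set was chosen by the measured levels of Amdhd1 and Sardh, which differed between genotypes in these libraries. The levels of those 2 genes are therefore a description with no test, and only Hal and Gnmt, of the other 5, had enough reads to be tested. Dmgdh, Ftcd and Uroc1 were at or near 0 counts in all libraries.

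Thyroids of mice were flash-frozen and sequenced as RNA, with 3 libraries for each genotype label: Wildtype, Arid2 KO and Smarcb1 KO. Replicate numbers used here follow the order in which the libraries of a group are listed. They are not from the labels, and equal numbers do not mark matched libraries. The proteins of Arid2 and Smarcb1 are parts of SWI/SNF, a chromatin remodelling complex, and the comparisons ask how transcript levels in the thyroid differ with the genotype label. The strain, age and sex of the mice, the alleles, and any promoter or Cre line behind the knockouts are not given in the sources used here, nor is it said that replicate libraries are different animals. The p-values therefore measure only the spread between these libraries, which may be technical.

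In the histidine chain, Hal (histidine ammonia-lyase) removes ammonia from histidine to give urocanate, Uroc1 (urocanase) hydrates urocanate, Amdhd1 (imidazolonepropionase) opens the ring to give formiminoglutamate, and Ftcd passes the formimino group to tetrahydrofolate. In the sarcosine chain, choline is oxidised to betaine, Bhmt takes a methyl group from betaine to leave dimethylglycine, and the mitochondrial flavoenzymes Dmgdh and Sardh remove the remaining methyl groups to give sarcosine and then glycine. Gnmt runs the other way, methylating glycine to sarcosine with S-adenosylmethionine. Both chains are known best from liver, and Hal also from the epidermis, where urocanate absorbs ultraviolet light.

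Hal and Amdhd1 are neighbours on chromosome 10, with 0 annotated genes between them in the RefSeq annotation of GRCm38.p6. They lie on opposite strands with their 3′ ends facing, and their annotated spans do not overlap. The promoter sequences of this pair are shown because this adjacent pair had the widest spread among the Wildtype libraries of the tested members. Each window is the stretch before the annotated start, read 5′ to 3′ on the gene's own strand, from RefSeq GRCm38.p6. That build is not the mm9 named in the submitters' processing notes, so no read was placed by these coordinates. Capitals mark matches to TATAA or CCAAT on either strand. The Hal window is chr10:93488518-93488767 on the plus strand, and the Amdhd1 window is chr10:93540112-93540283 on the minus strand.
Hal: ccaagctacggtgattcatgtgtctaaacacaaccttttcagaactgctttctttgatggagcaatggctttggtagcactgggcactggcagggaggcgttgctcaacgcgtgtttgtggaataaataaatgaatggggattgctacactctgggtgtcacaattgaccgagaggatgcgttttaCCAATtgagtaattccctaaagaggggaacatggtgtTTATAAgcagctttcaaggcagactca
Amdhd1: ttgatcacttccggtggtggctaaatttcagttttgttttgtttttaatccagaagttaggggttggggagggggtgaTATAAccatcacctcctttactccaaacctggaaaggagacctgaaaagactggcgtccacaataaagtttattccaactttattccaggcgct
The 250 bases before Hal hold 2 matches to TATAA, which overlap on opposite strands in 1 stretch of capitals, and 1 match to CCAAT. Of 32851 promoter windows of that length, 22.8% hold TATAA and 33.8% hold CCAAT. The 172 bases before Amdhd1 hold 1 match to TATAA, which 16.2% of windows of that length hold, and 0 matches to CCAAT, which 23.6% hold. GGGCGG, also searched for on both strands, had 0 matches in either window, against 32.7% and 19.8% of all windows at those lengths. These letters are a description of the windows and not evidence of a bound factor.

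Total counts per library ranged from 33666251 to 89553766, and the Arid2 KO libraries were the deepest. The Arid2 transcript was not lower in the Arid2 KO libraries, with 94.6, 77.7 and 59.9 CPM (per-library scaled counts) against 68.9, 75.0 and 67.8 CPM in Wildtype. The Smarcb1 transcript stood at 47.5, 53.7 and 59.4 CPM in the Smarcb1 KO libraries against 65.9, 71.7 and 69.3 CPM in Wildtype. Of 10 thyroid follicle markers, 9 stood at 40.8 CPM or more in every library, led by Tg, while Slc26a4 had 1 to 27 counts per library. Foxe1, one of the 9, stood at 44.7 to 61.8 CPM in Smarcb1 KO, 117.9 to 173.5 CPM in Arid2 KO and 200.9 to 278.5 CPM in Wildtype. Arid2 KO replicate 1 and Smarcb1 KO replicate 2 stood apart in thymocyte markers, which summed to 1066 and 160.9 CPM there and whose median library in each group was under 2 CPM. The summed level of the parathyroid markers Pth, Gcm2 and Casr was 6092 to 16992 CPM in the Smarcb1 KO libraries, 8.16 to 4320 CPM in Wildtype and 10.6 to 1581 CPM in Arid2 KO. Airway markers were highest in Arid2 KO, at 26.3 to 76.8 CPM against 3.95 to 8.65 CPM in Wildtype and 1.22 to 14.2 CPM in Smarcb1 KO. Brown fat markers summed to 1124 to 2082 CPM in Arid2 KO and 539.8 to 966.6 CPM in Smarcb1 KO, with Wildtype at 519.8 to 2725 CPM. Erythroid markers were lowest in Smarcb1 KO, at 116.5 to 213.0 CPM against 307.5 to 1475 CPM in Wildtype and 266.7 to 699.0 CPM in Arid2 KO. In such bulk tissue, fewer cells of a type and less RNA per cell cannot be told apart.

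Per kilobase of the longest annotated transcript, the scale used to compare genes, Amdhd1 and Sardh were the highest of the 7 in Wildtype. Their mean levels were 6.27 and 5.04 CPM per kb, followed by Gnmt at 2.63 and Hal at 0.835 CPM per kb. The ranges of the Wildtype libraries overlapped between Amdhd1 and Sardh and between Gnmt and Hal, while all Sardh libraries were above all Gnmt libraries. Within each Wildtype library Gnmt stood above Hal, at 3.84 against 1.88, 2.25 against 0.332 and 1.81 against 0.296 CPM per kb. Amdhd1 was below Sardh in Wildtype replicate 1 and above it in replicates 2 and 3, so the order of these 2 genes was not the same in every library. In Arid2 KO the order of the same 4 genes began with Sardh at 8.36 CPM per kb, followed by Amdhd1 at 5.39, Gnmt at 1.71 and Hal at 0.350 CPM per kb, with no overlap between neighbours. In Smarcb1 KO, Sardh stood at 3.56 CPM per kb, Gnmt at 1.94, Hal at 1.41 and Amdhd1 at 0.166 CPM per kb, and only Gnmt and Hal overlapped. Uroc1, Ftcd and Dmgdh were at no more than 0.0261 CPM per kb in every group mean.

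**Figure D1:**
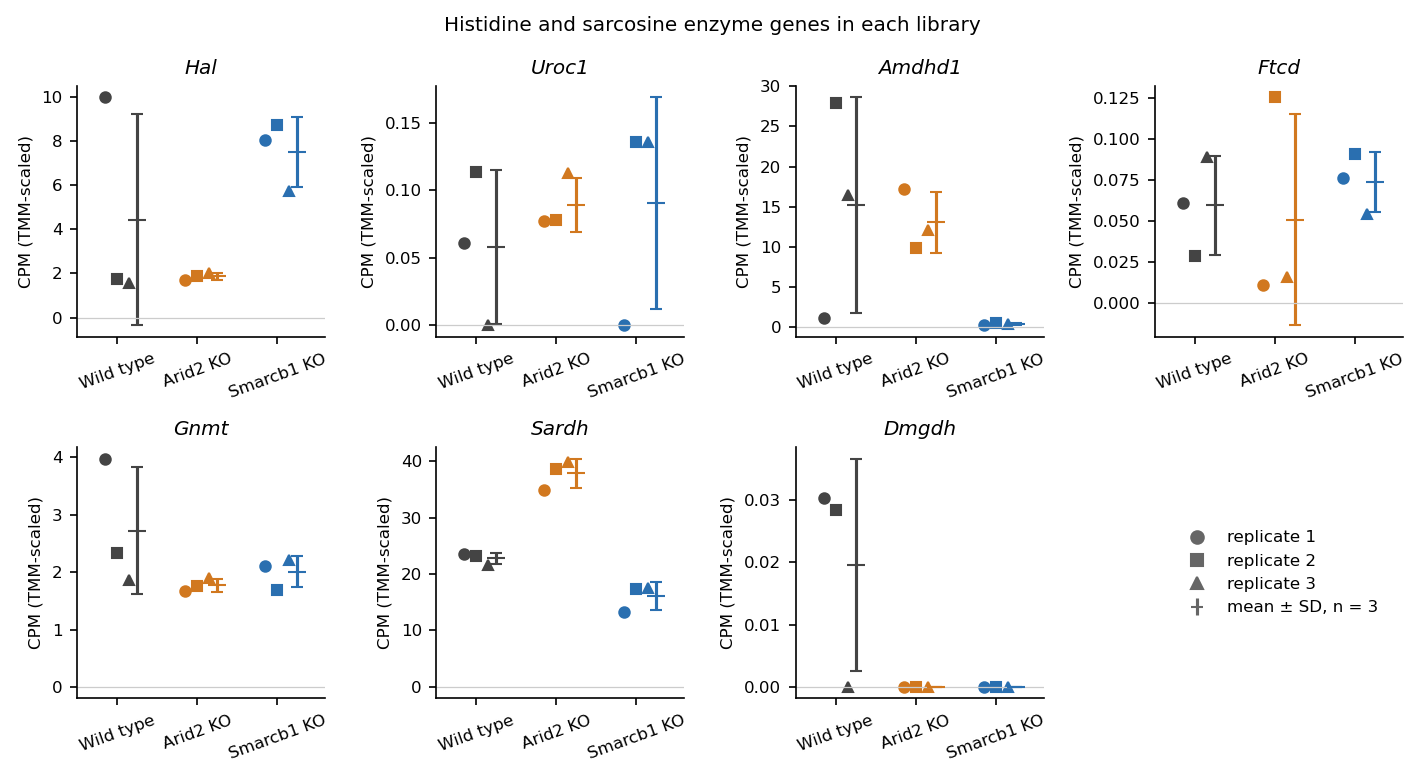
Level of each of the 7 genes (y axis, CPM, a separate scale in each panel) in the 3 genotype groups (x axis). Points are libraries and bars are the mean ± SD of 3 libraries; the 3 Sardh groups lie apart, Amdhd1 is under 1 CPM in every Smarcb1 KO library, and Uroc1, Ftcd and Dmgdh stay under 0.14 CPM.

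Hal, the first enzyme of histidine breakdown, was low in most libraries and high in 4. It stood at 9.98, 1.76 and 1.57 CPM in the 3 Wildtype libraries, at 1.69, 1.88 and 2.01 CPM in Arid2 KO, and at 8.04, 8.74 and 5.74 CPM in Smarcb1 KO. All Smarcb1 KO libraries were therefore above all Arid2 KO libraries, while Wildtype replicate 1 was the highest of the 9 and the other 2 Wildtype libraries lay in or just below the Arid2 KO range. The mean was 4.44 ± 4.80 CPM in Wildtype, 1.86 ± 0.157 CPM in Arid2 KO and 7.50 ± 1.57 CPM in Smarcb1 KO (SD, n = 3 each).

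The differences of Hal did not pass an adjusted p of 0.05 in edgeR's quasi-likelihood test over all tested genes. The log2 difference was -1.25 (SE 0.63, edgeR adjusted p = 0.392) for Arid2 KO against Wildtype and 0.76 (SE 0.62, edgeR adjusted p = 0.442) for Smarcb1 KO against Wildtype. Between the knockouts it was 2.01 (SE 0.64, edgeR adjusted p = 0.0597), with Smarcb1 KO higher in 3 of 3 libraries. Without Wildtype replicate 1, the library with the highest Hal level, the Arid2 KO difference turned to 0.16 (SE 0.25, edgeR adjusted p = 0.854), and the Smarcb1 KO difference grew to 2.17 (SE 0.27) and passed (edgeR adjusted p = 0.0114). Over the 9 fits that left out a library, the difference of Smarcb1 KO from Wildtype ran from 0.35 to 2.17, and 8 of them did not pass. The difference between the knockouts passed without Wildtype replicate 1 (edgeR adjusted p = 0.00708), without Wildtype replicate 3 (0.0474), in a fit of the 6 knockout libraries alone (0.0107) and with the DESeq2 Wald test (adjusted p = 0.00489), with a log2 difference near 2.01 in each. It did not pass in the other 7 of 9 fits that left out a library. Nor did it pass in the other 7 of 9 alternatives, which include the GC trend removed and the parathyroid covariate. The log2 difference ran from 1.89 to 2.17 on leaving out 1 library and from 1.70 to 2.04 over the other alternatives.

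Amdhd1, which follows Uroc1 in the chain, had the widest range of the 7 genes. It stood at 1.12, 27.9 and 16.5 CPM in Wildtype (37, 980 and 556 counts), at 17.3, 9.84 and 12.1 CPM in Arid2 KO (1568, 629 and 751 counts), and at 0.229, 0.543 and 0.433 CPM in Smarcb1 KO (9, 24 and 16 counts). All Smarcb1 KO libraries were below all others, and Wildtype replicate 1 was nearer to them than to the other Wildtype libraries. The mean was 15.2 ± 13.4 CPM in Wildtype, 13.1 ± 3.80 CPM in Arid2 KO and 0.402 ± 0.159 CPM in Smarcb1 KO (SD, n = 3 each).

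The log2 difference of Amdhd1 was -5.22 (SE 0.99) for Smarcb1 KO against Wildtype and -5.01 (SE 0.98) for Smarcb1 KO against Arid2 KO. These values were part of the reason the set was picked and carry no test. When any 1 library was left out, the difference of Smarcb1 KO from Wildtype ran from -5.77 to -4.44. With a covariate for the parathyroid markers, it was -5.37. The summed level of these markers was higher in every Smarcb1 KO library than in any other library, so this fit cannot tell them apart from the genotype. For Arid2 KO against Wildtype the log2 difference was -0.22 (SE 0.79), and it turned to 0.57 (SE 0.85) without Wildtype replicate 2, the library with the highest Amdhd1 level.

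Wildtype replicate 1 thus held the highest Hal level and the lowest Amdhd1 level of its group. On the log2(CPM + 0.5) scale, the SD within Wildtype was 2.20 for Amdhd1 and 1.31 for Hal, larger than for 99.7% and 99.1% of the tested genes, whose median SD was 0.153. Within Arid2 KO the SD of Amdhd1 was 0.395 and that of Hal 0.0968, and within Smarcb1 KO they were 0.265 and 0.300. Gnmt also had a wide spread in Wildtype, at 0.473, and Sardh a narrow one, at 0.0644. Wildtype replicates 1, 2 and 3, with Amdhd1 at 1.12, 27.9 and 16.5 CPM, were not in the same order for Pth, which encodes parathyroid hormone. Its levels there were 1199, 4172 and 0.0297 CPM. The part of parathyroid tissue in the levels of Amdhd1 was not tested. Between groups it cannot be told apart from the genotype, because the summed parathyroid markers were highest in the Smarcb1 KO libraries.

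**Figure D2:**
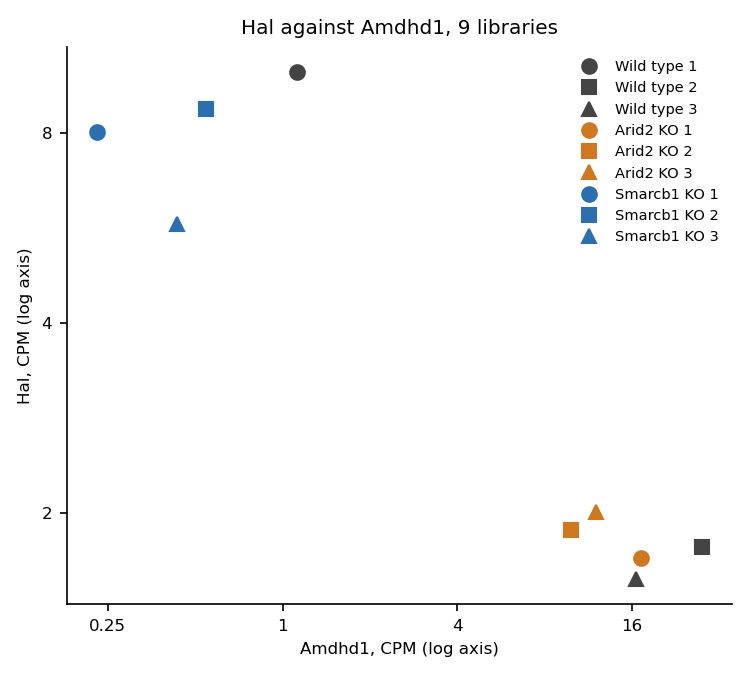
Level of Hal (y axis, CPM, log scale) against level of Amdhd1 (x axis, CPM, log scale) in the 9 libraries, coloured by genotype. Wildtype replicate 1, at 1.12 CPM Amdhd1 and 9.98 CPM Hal, lies with the 3 Smarcb1 KO libraries at high Hal and low Amdhd1, and the other 5 libraries lie at low Hal and high Amdhd1.

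The 8 tested genes on each side of the pair were read next, a check added after the levels of Hal and Amdhd1 were seen. In edgeR's test, 0 of these 16 neighbours passed for Arid2 KO against Wildtype, 0 had an unadjusted p under 0.05 and DESeq2 called 0. Of all tested genes, 0.556% passed there, 14.9% had an unadjusted p under 0.05 and DESeq2 called 5.21%. In Smarcb1 KO against Wildtype, 1 was higher and 1 was lower, and in Smarcb1 KO against Arid2 KO 1 was lower, where 7.9% and 16.3% of all 17079 tested genes passed in either direction. At an unadjusted p under 0.05 there were 4 and 2, beside 28.4% and 35.8% of all tested genes. DESeq2 called 3 and 2, beside 16.7% and 25.6%. Nothing particular to these neighbours is read from the counts. The lower one was Ndufa12, a subunit of mitochondrial complex I, at 24.2, 23.7 and 21.7 CPM in Smarcb1 KO against 28.7, 40.0 and 48.1 CPM in Wildtype. The higher one was the microRNA gene Mir135a-2, with a log2 difference of 1.34, a count that is uncertain because reads of overlapping transcripts cannot be told apart. The nearest tested genes on each side of the pair, Lta4h and Ccdc38, had log2 differences of -0.25 and -0.22 for Smarcb1 KO against Wildtype. Fgd6 was higher in Wildtype replicate 1 than in the other Wildtype libraries. It stood at 35.1, 8.94 and 12.0 CPM in Wildtype, 11.3, 17.5 and 20.3 CPM in Arid2 KO and 42.6, 35.7 and 22.9 CPM in Smarcb1 KO, and did not pass in any comparison. Wildtype replicate 1 also lay nearer to Smarcb1 KO than the other Wildtype libraries did for Lta4h, Ntn4, Nr2c1, Vezt and Ndufa12. Lta4h was at 41.01 CPM there, against 58.48 and 57.10 CPM, and Ntn4 at 14.7, against 8.45 and 7.56 CPM. For Tmpo, Nedd1, Elk3, Snrpf and Metap2 it was the lowest Wildtype library, although the log2 difference of Smarcb1 KO from Wildtype was above 0. How far along the chromosome this library differs was not tested. These neighbours are named after their values were seen. Smarcb1 and Ftcd also lie on chromosome 10, and whether this location bears on the results was not tested.

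The 2 remaining enzymes of the histidine chain were barely detected. Uroc1, between Hal and Amdhd1 in the chain, had 2, 4 and 0 counts in Wildtype, 7, 5 and 7 in Arid2 KO and 0, 6 and 5 in Smarcb1 KO, or 36 in all. Ftcd, the last enzyme, had 2, 1 and 3 counts in Wildtype, 1, 8 and 1 in Arid2 KO and 3, 4 and 2 in Smarcb1 KO, or 25 in all. Both were removed by the filter on low counts, and a difference between groups was not detectable at this depth. A count of 0 allows up to 3 counts, which is 0.0335 to 0.0891 CPM in these libraries. The hepatocyte genes Alb, Apoa1 and Fgb were also at 0 in all Wildtype libraries and at no more than 9 counts in any library. The summed level of 10 hepatocyte genes, most of it from Cyp2e1, was 39.8 to 120.9 CPM in Wildtype, 88.9 to 120.1 CPM in Arid2 KO and 48.7 to 142.2 CPM in Smarcb1 KO. The epidermis and stratified epithelium markers summed to 38.1 to 44.2 CPM in Wildtype, 45.7 to 67.8 CPM in Arid2 KO and 33.3 to 85.0 CPM in Smarcb1 KO, with Sprr3 at 0 in all 9 libraries. Most of the Wildtype sum came from Trp63, at 25.8 to 32.8 CPM. The keratin Krt5 stood at 0, 41.3 and 4.06 CPM in Smarcb1 KO. The part of hepatocytes or of epidermis in the levels of Hal was not tested.

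Sardh, which oxidises sarcosine to glycine in mitochondria, separated the 3 genotype groups completely. It stood at 23.6, 23.1 and 21.6 CPM in Wildtype, at 34.9, 38.7 and 39.8 CPM in Arid2 KO, and at 13.3, 17.4 and 17.6 CPM in Smarcb1 KO. Every Arid2 KO library was above every Wildtype library and every Smarcb1 KO library was below. The mean was 22.8 ± 1.03 CPM in Wildtype, 37.8 ± 2.58 CPM in Arid2 KO and 16.1 ± 2.44 CPM in Smarcb1 KO (SD, n = 3 each). The log2 difference from Wildtype was 0.73 (SE 0.13) in Arid2 KO and -0.50 (SE 0.13) in Smarcb1 KO, and the log2 difference of Smarcb1 KO from Arid2 KO was -1.23 (SE 0.13). As the gene was picked for these values, they carry no test.

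The GC content of the Sardh transcript is 56.9%, above the median of 49.8% over the tested genes. The 1380 tested genes within 1 percentage point of it had a median log2 difference of -0.33 for Smarcb1 KO against Wildtype, -0.40 for Smarcb1 KO against Arid2 KO and 0.05 for Arid2 KO against Wildtype. When each library's trend over GC content was removed, the log2 difference of Sardh was -0.18 (SE 0.0837) for Smarcb1 KO against Wildtype, -0.87 (SE 0.0837) for Smarcb1 KO against Arid2 KO and 0.70 for Arid2 KO against Wildtype. The difference of Smarcb1 KO from Wildtype was thus smaller after this step, and that of Arid2 KO from Wildtype kept nearly its whole size.

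Of the 16 tested genes around Sardh on chromosome 2, 0 passed in edgeR's test for Arid2 KO against Wildtype, where 1 had an unadjusted p under 0.05 and DESeq2 called 1. The shares of all tested genes in that comparison were 0.556%, 14.9% and 5.21%, in the same order. In Smarcb1 KO, 1 was lower than in Wildtype, and 2 were lower than in Arid2 KO, where 5.74% and 9.32% of all tested genes were lower. At an unadjusted p under 0.05 there were 4 and 3, beside 28.4% and 35.8% of all tested genes. DESeq2 called 2 and 3, beside 16.7% and 25.6%. Nothing particular to these neighbours is read from the counts. One of the 2 genes lower than in Arid2 KO in edgeR's test was Adamtsl2, a secreted matrix protein gene on the other strand, named after its values were seen. It was the nearest tested gene on its side of Sardh, and untested genes between them were not counted. Adamtsl2 stood at 5.10, 6.63 and 8.57 CPM in Wildtype, 15.3, 12.2 and 14.0 CPM in Arid2 KO and 2.70, 4.57 and 5.93 CPM in Smarcb1 KO, so that its Arid2 KO libraries were the highest 3, as for Sardh. Its log2 difference of Smarcb1 KO from Arid2 KO was -1.65. The other gene that passed was Col5a1, a collagen gene, at -0.95 for Smarcb1 KO against Wildtype and -0.80 for Smarcb1 KO against Arid2 KO.

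**Figure D3:**
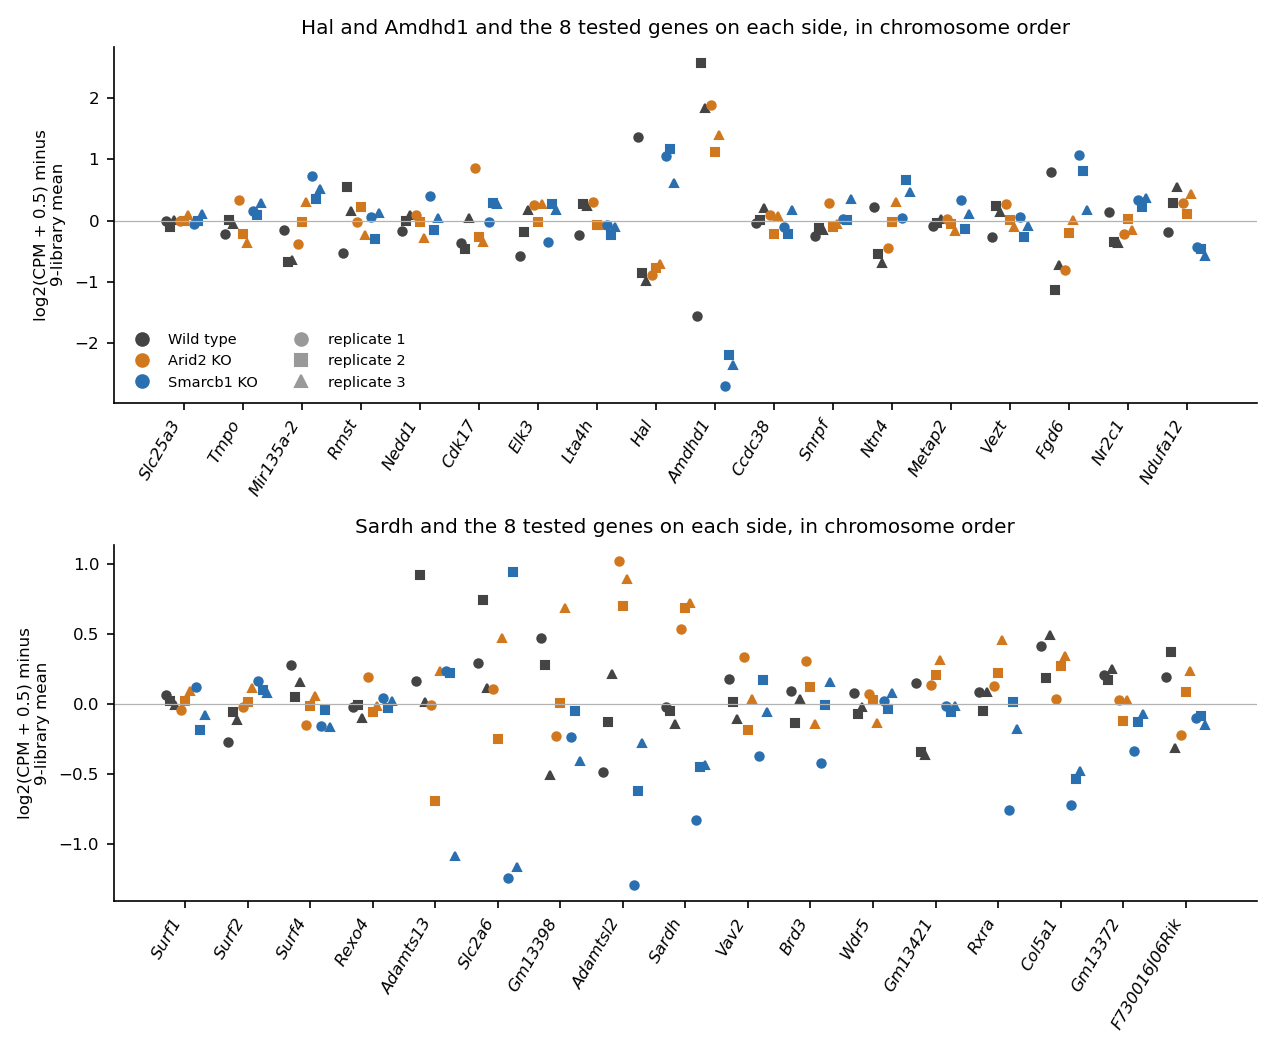
Level of Hal and Amdhd1 (upper panel) and of Sardh (lower panel) with the 8 tested genes on each side, in chromosome order (x axis), as log2(CPM + 0.5) minus the gene's mean over 9 libraries (y axis). Points are libraries, coloured by genotype and shaped by replicate. Hal and Amdhd1 spread more than the nearest tested genes on each side, and the 3 Arid2 KO libraries are highest for Sardh and for Adamtsl2, the nearest tested gene on its side.

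Gnmt, which makes sarcosine from glycine, did not pass in any comparison. It stood at 3.97, 2.33 and 1.87 CPM in Wildtype, 1.67, 1.75 and 1.90 CPM in Arid2 KO, and 2.11, 1.70 and 2.22 CPM in Smarcb1 KO. The groups overlapped in every comparison, and Wildtype replicate 1 was the highest library. The log2 difference was -0.62 (SE 0.29, edgeR adjusted p = 0.364) for Arid2 KO against Wildtype, -0.44 (SE 0.29, edgeR adjusted p = 0.348) for Smarcb1 KO against Wildtype, and 0.18 (SE 0.29, edgeR adjusted p = 0.684) between the knockouts. Without Wildtype replicate 1 the differences from Wildtype were -0.24 and -0.07. With the GC trend removed, the differences of Smarcb1 KO were -0.04 from Wildtype and 0.61 from Arid2 KO, and did not pass.

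Dmgdh, which supplies sarcosine from dimethylglycine, had 1 count in each of Wildtype replicates 1 and 2 and 0 counts in the other 7 libraries. Bhmt, the step before it, had 0 counts in 7 libraries and 1 count in each of Smarcb1 KO replicates 1 and 2, and its relative Bhmt2 had 0 in all 9. Pipox, a peroxisomal enzyme that also oxidises sarcosine, had 3 to 71 counts, with the 71 in Arid2 KO replicate 1. Chdh, which starts choline oxidation and precedes these steps, was abundant at 332.1 to 482.3 CPM across all 9 libraries, and its groups overlapped in all comparisons. Aldh7a1, which oxidises betaine aldehyde to betaine after Chdh, is named for its place in the chain, outside the rule for named genes. It stood at 59.9 to 79.5 CPM. Every Arid2 KO library was below every Wildtype library (log2 difference -0.23, edgeR adjusted p = 0.310), in a comparison where groups did not overlap for 25.5% of all tested genes. The genes that make betaine were thus measured at high levels, while Bhmt and Dmgdh, on the way from betaine to sarcosine, were at or under 1 count in every library.

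Counted over all comparisons, of the 2 tested members that the choice did not use, Hal and Gnmt, 0 passed for Arid2 KO against Wildtype, where 0.556% of all tested genes passed. The count was 0 of 2 also for Smarcb1 KO against Wildtype, with 7.9% of all genes passing, and for Smarcb1 KO against Arid2 KO, with 16.3% passing. At an unadjusted edgeR p under 0.05 the counts were 0, 0 and 1, and with DESeq2 0, 0 and 1, the 1 being Hal. Over all genes, the unadjusted shares were 14.9%, 28.4% and 35.8%, and the DESeq2 shares 5.21%, 16.7% and 25.6%. Of the 4 members with enough reads, groups did not overlap for 1 (Sardh), 2 (Amdhd1 and Sardh) and 3 (Amdhd1, Hal and Sardh) in these comparisons. Over all tested genes groups did not overlap for 25.5%, 33.7% and 38.8%, and nothing is read from the counts of Amdhd1 and Sardh, since they led to the choice. The comparisons share libraries with each other, so their values are set side by side only.

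**Figure D4:**
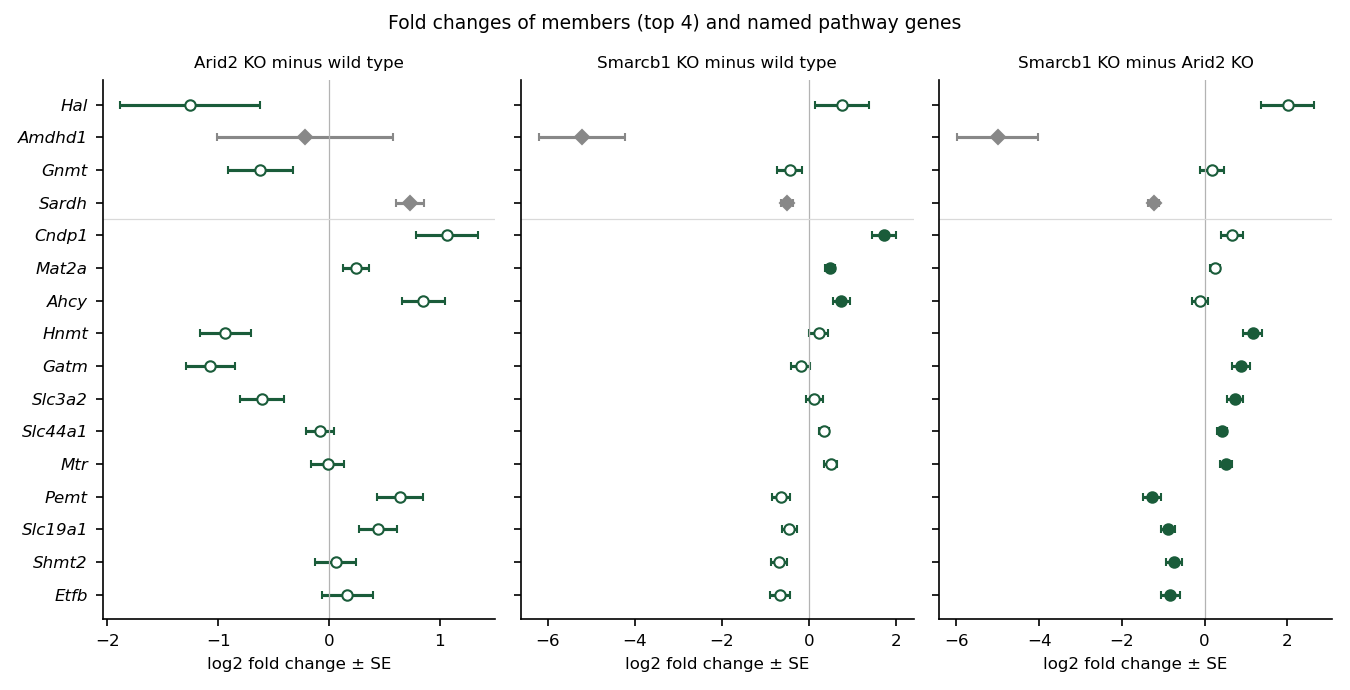
Log2 difference with its SE (x axis) of the 4 members with enough reads and of the pathway genes that passed in any comparison (y axis), for the 3 comparisons, each on its own scale. Filled green points passed an adjusted p of 0.05, open points did not, and grey diamonds (Amdhd1 and Sardh) carry no test; Cndp1, Mat2a and Ahcy are filled for Smarcb1 KO against Wildtype.

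The wider pathway was read from a list of 63 genes of histidine use and transport, choline and glycine supply, the methionine cycle, folate one-carbon transfer and the electron acceptors of Sardh and Dmgdh. Of these, 62 were in the table and 58 were tested. For Arid2 KO against Wildtype, where 0.234% of all genes rose and 0.322% fell, 0 of 58 passed in edgeR's test. There, 14 (24.1%) had an unadjusted p under 0.05, beside 14.9% of all genes, and DESeq2 called 8 (13.8%), beside 5.21% of all genes. The list's median log2 difference was 0.03 beside 0.02 over all tested genes. For Smarcb1 KO against Wildtype, 3 of 58 (5.17%) rose and 0 fell, where 2.15% of all genes rose and 5.74% fell, with a list median of -0.01 beside 0.05. Between the knockouts, 5 (8.62%) were higher in Smarcb1 KO and 4 (6.9%) lower, where 6.95% and 9.32% of all genes were, with a list median of 0.00 beside 0.003. DESeq2 called 10 (17.2%) and 13 (22.4%) of the list in these latter comparisons, beside 16.7% and 25.6% of all genes. These shares are a description, and nothing particular to the list is read from them.

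The 3 that rose in Smarcb1 KO against Wildtype were Cndp1, a dipeptidase that releases histidine from carnosine, Mat2a, which makes S-adenosylmethionine, and Ahcy, which hydrolyses S-adenosylhomocysteine. Cndp1 went from 0.870 ± 0.270 to 2.88 ± 0.333 CPM (SD, n = 3 each), a log2 difference of 1.72 (SE 0.28, edgeR adjusted p = 0.0115). Mat2a went from 195.7 to 274.9 CPM and Ahcy from 5.78 to 9.71 CPM, log2 differences of 0.49 (SE 0.12, edgeR adjusted p = 0.0405) and 0.75 (SE 0.19, edgeR adjusted p = 0.0487). Leaving out any library but Smarcb1 KO replicate 2 ended the call of Mat2a, and leaving out any but Wildtype replicate 3 that of Ahcy, whereas Cndp1 passed in all 9 such fits. With the GC trend removed the Mat2a difference was 0.21 and the Ahcy difference 0.78, and neither passed.

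Between the knockouts, the genes higher in Smarcb1 KO were Hnmt, which inactivates histamine, at log2 1.16 (edgeR adjusted p = 0.0162), Gatm of creatine synthesis at 0.88 (0.0298), Slc3a2, a heavy chain of amino acid transporters, at 0.73 (0.0380), Mtr, methionine synthase, at 0.51 (0.0465), and the choline transporter Slc44a1 at 0.43 (0.0458). Those lower in Smarcb1 KO were Pemt, which methylates phosphatidylethanolamine, at log2 -1.28 (edgeR adjusted p = 0.00959), the folate carrier Slc19a1 at -0.89 (0.0154), the electron acceptor subunit Etfb at -0.83 (0.0422), and mitochondrial serine hydroxymethyltransferase Shmt2 at -0.74 (0.0307). Etfb passes on the electrons of Sardh, and it stood at 136.2 ± 36.0 CPM in Wildtype, 152.8 ± 33.1 CPM in Arid2 KO and 86.2 ± 17.3 CPM in Smarcb1 KO (SD, n = 3 each). The 2 libraries highest in Etfb, Arid2 KO replicate 3 at 190.4 CPM and Wildtype replicate 3 at 177.8 CPM, were also the 2 highest in the summed brown fat markers, at 2082 and 2725 CPM, and the part of these in the level of Etfb was not tested. Its partner subunit Etfa did not pass, with a log2 difference of -0.20 (SE 0.24) between the knockouts. Pemt passed in all 9 fits that left out a library. The call of Hnmt ended without Arid2 KO replicate 2 or 3, that of Slc19a1 without Arid2 KO replicate 3 or Smarcb1 KO replicate 3, and that of Gatm without any of the Arid2 KO libraries or Smarcb1 KO replicate 3. Shmt2 kept its call only without Smarcb1 KO replicate 1 or 2 or Wildtype replicate 2 or 3, and Etfb only without Arid2 KO replicate 1, Smarcb1 KO replicate 2 or Wildtype replicate 3. Slc44a1 kept its call only without Smarcb1 KO replicate 2 or Wildtype replicate 3, Mtr only without Smarcb1 KO replicate 2, and Slc3a2 only without Wildtype replicate 2. All of these calls, and the 3 above, ended with a covariate for the parathyroid markers, under which the SE of each was larger except for Etfb. The log2 difference under it was 1.78 for Cndp1, 0.55 for Mat2a, 0.93 for Ahcy and -1.27 for Pemt, near or above the size without it. It was also above it for Gatm, at 1.07, and Slc44a1, at 0.55. It was smaller for Hnmt, at 1.03, Slc3a2, at 0.56, Mtr, at 0.36, Slc19a1, at -0.75, Shmt2, at -0.67, and Etfb, at -0.40. Parathyroid markers were highest in the Smarcb1 KO libraries, so these fits cannot tell the markers apart from the genotype. With the GC trend removed, the log2 difference was 0.67 for Hnmt, 0.60 for Gatm, 0.06 for Slc44a1, 0.29 for Mtr, -0.38 for Shmt2 and -0.45 for Etfb, and these 6 calls ended.

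Likeness of other genes to Amdhd1 and Sardh was measured as the root mean square difference of log2(CPM + 0.5) over the 9 libraries, each gene centred on its own mean, among 12819 genes. The 5 nearest to Amdhd1 were Srd5a1 at 1.03, Scand1 at 1.14, Mrps34 and Nrtn at 1.16 each, and H2-Q10 at 1.19. Amdhd1's own root mean square about its mean was 2.02, so these are distant. Srd5a1, a steroid 5-alpha reductase, was the nearest, at 14.6 ± 2.96 CPM in Wildtype, 21.7 ± 5.55 CPM in Arid2 KO and 2.11 ± 0.0447 CPM in Smarcb1 KO (SD, n = 3 each). Its Wildtype replicate 1 stood at 12.4 CPM, unlike Amdhd1 in that library.

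Sardh, with its own root mean square of 0.513, had nearer genes. They were Sbf1 at 0.121, Ankrd13b at 0.132, Samd14 at 0.134, Tbc1d16 at 0.138 and Ccdc61 at 0.141, and Pemt of the pathway list was the ninth nearest, at 0.148. Their GC content ran from 54.9% to 62.3%, all above the median of the tested genes. Sbf1, a pseudophosphatase, stood at 116.4 ± 12.2 CPM in Wildtype, 168.0 ± 7.99 CPM in Arid2 KO and 73.3 ± 13.2 CPM in Smarcb1 KO (SD, n = 3 each). Pemt stood at 4.36 ± 0.714, 6.80 ± 1.13 and 2.81 ± 0.327 CPM in the same order (SD, n = 3 each).

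**Figure D5:**
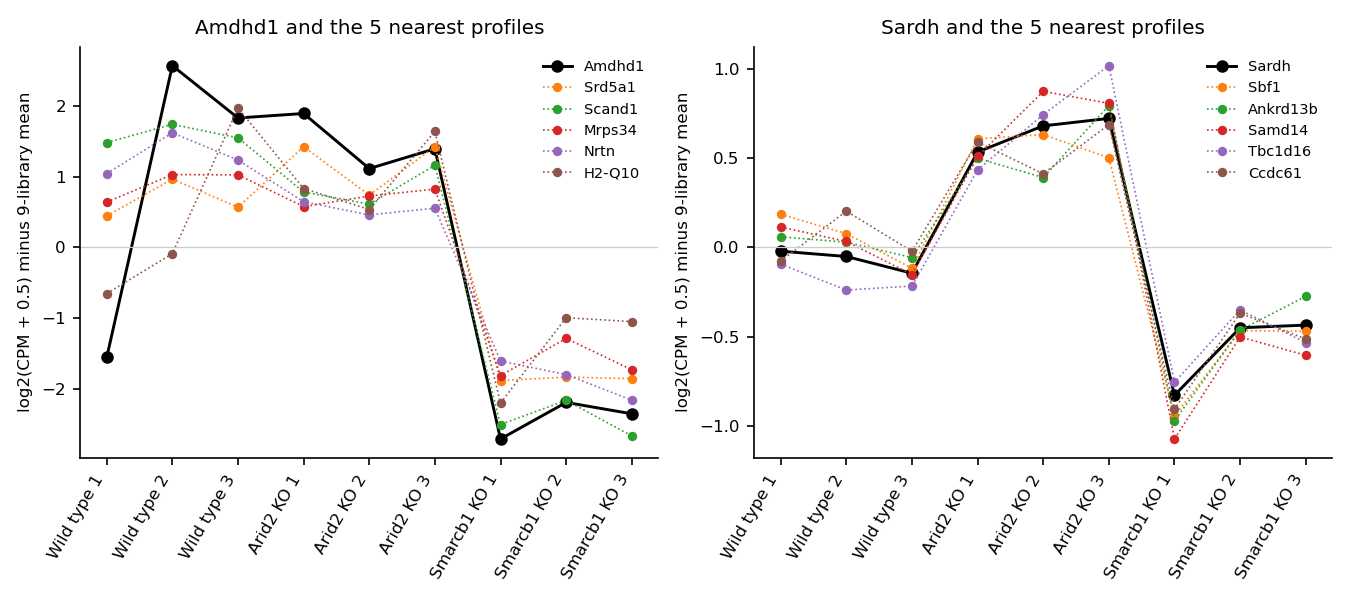
Centred log2(CPM + 0.5) (y axis) of Amdhd1 and of Sardh with their 5 nearest genes in the 9 libraries (x axis). The 5 genes near Sardh lie within 0.141 of it in root mean square, while the nearest to Amdhd1 differs by 1.03 and lacks its low value in Wildtype replicate 1.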

How the data were processed

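Per the labels' protocols, TRIzol was used to extract RNA and a TruSeq kit to build the libraries. The values used are whole-number read counts per gene for 9 libraries, deposited by the authors with no normalization. The submitters' processing notes list STAR 2.4, HTSeq 0.6.1, DESeq2 and the build mm9 with no role or order, and the use of strand in counting is not given in the sources used here. All 9 value columns were matched to samples, leaving 0 columns without one. Libraries of a group differed by more than sampling noise (a chi-square of 47.6 to 122 for each degree of freedom), so none was counted as a copy of another.

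Groups follow the genotype labels. Differences were tested with edgeR 4.0.16 in R 4.3.3 (quasi-likelihood test after TMM scaling and a filterByExpr filter on low counts, all 9 libraries fitted together as 3 group means), with Benjamini-Hochberg adjustment over 17079 tested genes. A gene passed at an adjusted p under 0.05. The SE of a log2 difference is its size divided by the square root of the quasi-likelihood F statistic. For Amdhd1 and Sardh it is a description only. CPM is TMM-scaled, and 3 counts of a library's total set the limit for a count of 0, which covers counting error only. Reads copied by PCR were not marked by molecular identifiers and may repeat a molecule. GC content and transcript lengths came from the longest GENCODE transcript of each gene in GRCm38, matched for 97.3% of tested genes. Simulated counts with known changes were used to check the edgeR fit.

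Alternatives were DESeq2 size factors, library totals, no filter, a filter at 1 CPM in 3 or more libraries, the Wald test of DESeq2 1.42.0, only the 6 libraries compared, removal of each library's GC trend (natural spline, 5 degrees of freedom), a parathyroid covariate (Pth, Gcm2 and Casr, averaged as log2(CPM + 1)), omission of the 2 libraries highest in Rag1, and leaving out each library in turn. The members and gene lists were chosen with earlier results of these data known. Named genes are the 7 members, Arid2 and Smarcb1, marker genes, up to 5 pathway genes that passed in each direction of a comparison, the 2 most abundant of each pathway group as references for level, and the 5 genes nearest to Amdhd1 and to Sardh. Genes named outside this rule are said to be so or are those removed by the filter on low counts.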

Additional observations from a re-analysis of the deposited data

Results flagged for a closer look

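The difference of Smarcb1 KO from Wildtype and that of Arid2 KO from Wildtype were not the same for 9 genes of the pathway list, by edgeR's direct test of Smarcb1 KO against Arid2 KO. Of the 58 tested genes of the list, 5 (8.62%) were higher in Smarcb1 KO and 4 (6.9%) lower, where 6.95% and 9.32% of all tested genes were. Groups did not overlap for 38.8% of all tested genes. Nothing particular to the list is read from these shares. All 9 calls ended with a covariate for the parathyroid markers, and those of Hnmt, Gatm, Slc44a1, Mtr, Shmt2 and Etfb with the GC trend removed. The log2 difference was 1.16 for Hnmt, 0.88 for Gatm, 0.73 for Slc3a2, 0.51 for Mtr and 0.43 for Slc44a1, higher in Smarcb1 KO in 3 of 3 libraries each. It was -1.28 for Pemt, -0.89 for Slc19a1, -0.83 for Etfb and -0.74 for Shmt2, lower in 3 of 3 libraries each. For Sardh it was -1.23, with every Arid2 KO library above and every Smarcb1 KO library below all Wildtype libraries. That difference was not tested, because the gene was picked for it.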

How the results depend on the processing

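No paired analysis was possible because the labels give no link between libraries of different genotypes. Over all tested genes, the number called for Arid2 KO against Wildtype was 95, and became 208 with the GC trend removed, 56 without the 2 libraries highest in Rag1, 201 with only the 6 libraries compared and 882 with DESeq2. Leaving out 1 library gave 5 (without Arid2 KO replicate 2) to 167 (without Smarcb1 KO replicate 1). For Smarcb1 KO against Wildtype, 1349 became 457 with the GC trend removed, 197 with the parathyroid covariate, 2166 without the 2 libraries highest in Rag1, 486 with 6 libraries and 2768 with DESeq2, and leaving out 1 library gave 344 (without Smarcb1 KO replicate 3) to 2538 (without Smarcb1 KO replicate 2). For Smarcb1 KO against Arid2 KO, 2779 became 1274, 145, 1348 and 4337 with the GC trend removed, the parathyroid covariate, 6 libraries and DESeq2, and leaving out 1 library gave 395 (without Arid2 KO replicate 3) to 4411 (without Smarcb1 KO replicate 2). The pathway list's 0 calls for Arid2 KO became 1 with 6 libraries and 8 with DESeq2, and 0 to 1 on leaving out 1 library. Its 3 calls for Smarcb1 KO became 1 without the filter, 1 with the GC trend removed, 0 with the parathyroid covariate, 1 with 6 libraries and 10 with DESeq2, and 1 to 4 on leaving out 1 library. Its 9 calls between the knockouts became 4 with the GC trend removed, 0 with the covariate and 4 with 6 libraries, and 1 to 10 on leaving out 1 library. The causes were not tested, except that fits with fewer libraries have fewer residual degrees of freedom. Of the members, the log2 difference of Arid2 KO from Wildtype turned to 0.57 for Amdhd1 without Wildtype replicate 2 and to 0.16 for Hal without Wildtype replicate 1. On leaving out 1 library it ran from -0.77 to 0.57 for Amdhd1 and from -1.66 to 0.16 for Hal. No other alternative run turned the direction of a difference of Amdhd1, Hal, Sardh or Gnmt. With a pseudocount of 0.1 in place of 0.5 the 5 nearest genes were the same for Amdhd1 and Sardh, and with 1 they were the same 5 for Amdhd1 and shared 4 for Sardh. Depth limits Uroc1, Ftcd and Dmgdh, whose group differences could not be read.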
